A study of Mus musculus with 12 samples.

Results

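The genes described here are 10 neuropeptide precursor genes of the cortex: Sst, Npy, Vip, Cck, Crh, Penk, Pdyn, Tac1, Cort and Adcyap1. They were represented by 12 of 45037 probe sets on an Affymetrix whole-genome mouse array, taken as every probe set whose platform symbol was one of these names. Medial prefrontal cortex (PFC) came from adult male mice obtained at 12 weeks of age. They were killed 4 h after an intraperitoneal injection, and the tissue of 3 mice was combined for each array. The labels and the study's methods differ on how many mice were injected. The labels count more mice a group than its 3 pools hold, and replicate numbers run to 4 in some groups. Any further pools were not analysed here. The 4 groups of 3 pools were Fyn-null mice given 3 g/kg ethanol, Fyn-null mice given saline, control mice given 3 g/kg ethanol and control mice given saline, and all animals had first received saline injections on each of 3 days. Fyn-null mice were of the stock B6;129S7-Fyntm1Sor/J, a germline mutant lacking the kinase in every cell from conception onward, and controls were B6129SF2/J, so that loss of Fyn and the difference between the stocks cannot be told apart. The labels call the pools biological replicates, and p-values measure the spread between pools.

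Neuropeptides are cut from larger precursors inside dense core vesicles, released during sustained firing and sensed mostly by G protein-coupled receptors. In the neocortex, Sst, Npy, Vip, Cort and Crh are made mainly by GABAergic interneurons, Cck by interneurons and pyramidal cells, and Adcyap1, which encodes the peptide PACAP, mainly by pyramidal cells. Penk and Pdyn encode the opioid enkephalins and dynorphins, and Tac1 encodes substance P and neurokinin A. Transcription of several of these genes is known to respond to cyclic AMP and to neuronal activity through the cAMP response element.

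RefSeq promoter sequences (mouse build GRCm38.p6) matched 8 of the 10 genes, all but Crh and Penk. The half-site of the cAMP response element (TGACG, or CGTCA where it lies on the other strand) was searched on both strands in the 100 bases before each start. It occurred for 6 of the 8 genes (Sst, Vip, Cck, Tac1, Cort and Adcyap1, counting any of a gene's starts), against 10.5% of all 32851 starts in the table. The full palindrome TGACGTCA, which holds a half-site on each strand, occurred for Sst alone among these genes, against 1.15% of all starts. Both set a count by gene against a share by start, and Pdyn and Adcyap1 have 2 starts each. A share over all genes was not computed. The windows of 4 genes are shown, chosen as the gene whose ethanol difference passed the test (Adcyap1), the gene with the full palindrome (Sst), an interneuron gene with 1 half-site (Vip) and a gene with none (Npy). Capitals mark the element, each sequence runs 5′ to 3′ on the gene's strand and ends at the base before the start, and a match is a description of the letters only. Adcyap1 lay at chr17:93198917-93199016 on the + strand, Sst at chr16:23890845-23890944 on the - strand, Vip at chr10:5639118-5639217 on the + strand and Npy at chr6:49822610-49822709 on the + strand.
Adcyap1: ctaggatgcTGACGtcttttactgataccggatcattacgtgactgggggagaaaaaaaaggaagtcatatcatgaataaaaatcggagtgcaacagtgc
Sst: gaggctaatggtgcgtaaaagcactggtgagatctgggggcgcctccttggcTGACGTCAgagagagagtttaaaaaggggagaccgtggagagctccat
Vip: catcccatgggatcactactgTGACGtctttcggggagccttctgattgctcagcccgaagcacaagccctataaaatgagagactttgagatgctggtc
Npy: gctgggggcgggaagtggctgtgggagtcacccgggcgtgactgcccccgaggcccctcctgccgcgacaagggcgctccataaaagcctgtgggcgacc
The element began 91 bases before the start in Adcyap1 (position -91), at -48 in Sst and at -79 in Vip. The other annotated start of Adcyap1 had none in its 100 bases. The remaining half-sites began at -47 in Cck, -43 in Tac1 and -18 in Cort.

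All values below are log2 RMA values, in which a difference of 1 is a doubling, and differences are given with their standard error from limma. Array medians lay between 5.40 and 5.48. A filter left out the 45% of probe sets with the lowest mean, which kept 11 of the 12 probe sets and all 10 genes. The lower of 2 Tac1 probe sets, at 3.26 to 3.69, did not pass. Fyn itself, read by its brighter probe set, was at 9.01, 8.75 and 8.77 in Fyn-null ethanol pools, against 9.70, 9.45 and 9.33 in control ethanol pools. In saline pools it was 8.89, 8.64 and 9.45 in Fyn-null and 9.31, 8.74 and 9.65 in control mice. The pool labelled Fyn-null saline replicate 4 thus carried a level of the control range, and the pool labelled control saline replicate 2 one of the Fyn-null range. Whether the probe set lies in the disrupted part of the gene was not tested. For the 10 genes and the receptor genes called over both genotypes, values without these 2 pools are therefore also given where a call changes. Other genes were not refitted one by one without them. Of cell type lists, all 16 pyramidal neuron genes on the array passed the filter, as did 19 of 22 interneuron genes and 11 of 15 striatal neuron genes. Of the striatal genes, Drd1 and Ppp1r1b were among those that passed, and Drd2, Gpr6, Isl1 and Sh3rf2 did not pass. The mean level of the striatal list lay between 7.37 and 7.40 in Fyn-null ethanol pools, 7.34 and 7.42 in Fyn-null saline pools, 7.36 and 7.41 in control ethanol pools and 7.32 and 7.42 in control saline pools.

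**Figure D1:**
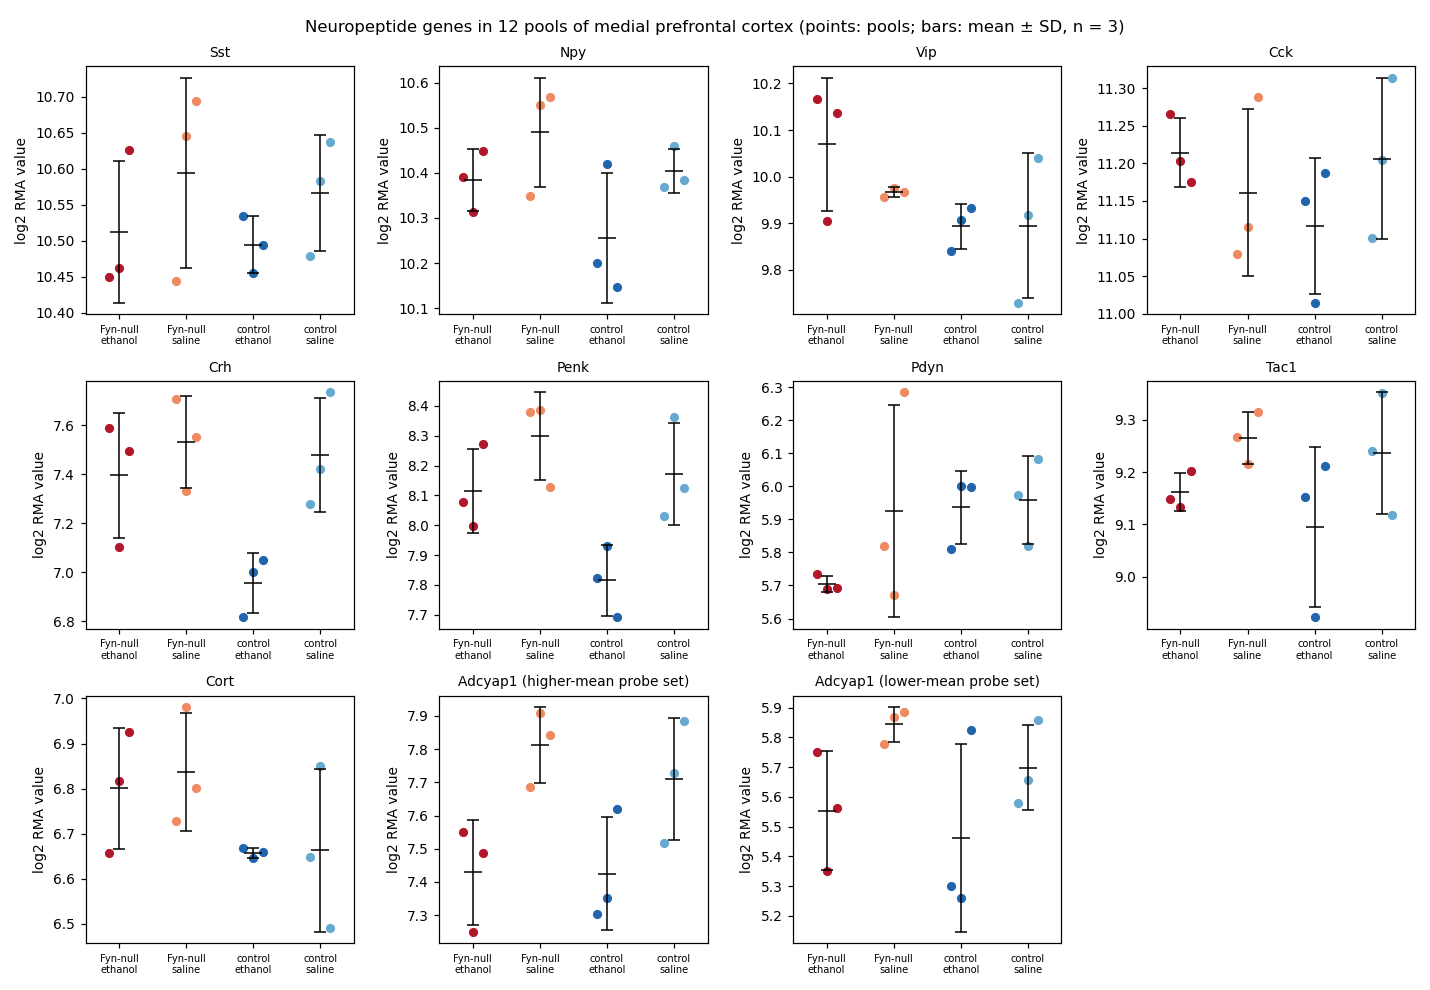
Log2 RMA values (vertical axis, scaled for each panel) of the 11 probe sets past the filter in each of 12 pools, by group (horizontal axis), with points for pools and bars for the mean ± SD (n = 3 pools). Crh and Penk are lowest in the 3 control ethanol pools, at 6.82 to 7.05 and 7.69 to 7.93, and Adcyap1 is lower in both ethanol groups than in their saline groups on average.

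The ethanol response was asked first over both genotypes, with 6 ethanol against 6 saline pools. The largest difference and the only one past the test was that of Adcyap1, the precursor of PACAP, which was 0.793 times as high after ethanol. Penk and Crh followed with differences of like size that missed the threshold. Sst, Npy, Vip, Cck, Tac1, Pdyn and Cort lay within 0.13 of their saline level. In limma 1 of 10 genes passed at an adjusted p under 0.05, against 4.22% of all 24770 probe sets called lower and 6.81% called in either direction, and 3 had an unadjusted p under 0.05, against 24.3%. The difference was below 0 for 9 of the 10 genes, against 56.3% of all probe sets, and the median over the 10 genes was -0.12, against -0.038 over 12323 genes.

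Adcyap1 had 7.55, 7.25 and 7.49 in Fyn-null ethanol pools, against 7.69, 7.91 and 7.84 in Fyn-null saline pools. In control mice it had 7.30, 7.35 and 7.62 after ethanol, against 7.52, 7.73 and 7.88 after saline. The groups did not overlap in Fyn-null mice, and in controls 1 ethanol pool, replicate 4, stood above the lowest saline pool. Over both genotypes the difference was -0.33 (standard error 0.084, limma adjusted p = 0.0329), which is -0.38 ± 0.122 in Fyn-null mice (adjusted p = 0.244) and -0.28 ± 0.122 in controls (adjusted p = 0.233). The dimmer Adcyap1 probe set had 5.75, 5.35 and 5.56 in Fyn-null ethanol pools against 5.78, 5.87 and 5.89 in Fyn-null saline pools, and 5.30, 5.26 and 5.83 in control ethanol pools against 5.58, 5.66 and 5.86 in control saline pools. It lay lower after ethanol in both genotypes as well (-0.26, 95% interval -0.48 to -0.05, limma adjusted p = 0.126) without passing. In bulk tissue, fewer cells that make a peptide and less of its RNA per cell cannot be told apart. The call for Adcyap1 was lost without the 2 doubted saline pools (-0.32, limma adjusted p = 0.0815). It was also lost without any single one of 8 pools, namely Fyn-null ethanol replicates 2 and 3, Fyn-null saline replicates 3 and 4, control ethanol replicates 1 and 2 and control saline replicates 2 and 3, with limma adjusted p between 0.0513 and 0.0796 and a difference of -0.29 to -0.38 over all 12 such fits.

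Some markers of other cell types differed with treatment over the same pools. Each count of called genes below stands against 4.22% of all probe sets called lower and 2.58% called higher. Of 7 endothelial genes 5 were called lower after ethanol, and the list's mean level was 6.90 to 7.03 in Fyn-null ethanol against 7.22 to 7.34 in Fyn-null saline pools, and 6.67 to 6.87 in control ethanol against 7.18 to 7.32 in control saline pools. The mean of the 19 interneuron genes was 8.00 to 8.17 in Fyn-null ethanol against 8.12 to 8.15 in Fyn-null saline pools, and 8.07 to 8.09 in control ethanol against 8.09 to 8.18 in control saline pools, with Calb1, which encodes the calcium buffer calbindin, called lower (-0.23). The mean of the 16 pyramidal genes was 8.33 to 8.47 in Fyn-null ethanol against 8.45 to 8.49 in Fyn-null saline pools, and 8.44 to 8.55 in control ethanol against 8.43 to 8.58 in control saline pools. Of the transcription factor genes in that list, Neurod1 was called lower (-0.29) and Neurod2 (0.29) and Bcl11b (0.19) higher. Of the 12 activity-induced genes 7 were called lower, among them Npas4 (-1.54) and Fos (-0.78). Of 11 striatal genes 2 were called higher (Ppp1r1b, 0.21, and Lrrc10b, 0.22), of 7 oligodendrocyte genes 1 higher (Mal, 0.53), of 7 microglia genes 1 lower (Aif1, -0.44) and of 8 astrocyte genes 0 by limma, with 0 also below 0.05 before adjustment. The mean of the oligodendrocyte genes was 8.38 to 8.63 in Fyn-null ethanol against 8.26 to 8.50 in Fyn-null saline pools, and 8.52 to 8.74 in control ethanol against 8.43 to 8.53 in control saline pools. The mean of the microglia genes was 7.59 to 7.77 in Fyn-null ethanol against 7.59 to 7.82 in Fyn-null saline pools, and 7.49 to 7.61 in control ethanol against 7.66 to 7.86 in control saline pools. The part of these cell types and of activity in the differences of the 10 genes was not tested.

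Crh encodes corticotropin-releasing hormone, which in cortex is a peptide of interneurons. It had 7.59, 7.10 and 7.49 in Fyn-null ethanol pools, against 7.71, 7.33 and 7.55 in Fyn-null saline pools. In control mice it had 6.82, 7.00 and 7.05 after ethanol, against 7.28, 7.42 and 7.74 after saline. The 3 control ethanol pools were the lowest of all 12, whereas ethanol and saline pools of Fyn-null mice overlapped. The difference was -0.52 in controls (standard error 0.150, 0.696 times the saline level, limma adjusted p = 0.0995), -0.14 in Fyn-null mice (adjusted p = 0.794) and -0.33 over both genotypes (adjusted p = 0.0982), and none passed. The difference of the 2 responses was 0.39 (standard error 0.212, 95% interval -0.07 to 0.85, limma adjusted p = 0.992), an interval that spans 0 and is wide beside the response of either genotype.

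Of the opioid precursors, Penk was likewise lowest in the 3 control ethanol pools. Penk had 8.08, 8.00 and 8.27 in Fyn-null ethanol pools, against 8.38, 8.39 and 8.13 in Fyn-null saline pools. It had 7.82, 7.93 and 7.69 in control ethanol pools, against 8.03, 8.36 and 8.12 in control saline pools. The control groups did not overlap, and in Fyn-null mice they did. The Penk difference over both genotypes was -0.27 (standard error 0.0815, limma adjusted p = 0.063), with -0.36 in controls (adjusted p = 0.131) and -0.18 in Fyn-null mice (adjusted p = 0.588). It passed only without Fyn-null ethanol replicate 3 (-0.31, limma adjusted p = 0.0492) or without the doubted Fyn-null saline replicate 4 (-0.32, limma adjusted p = 0.0324). Pdyn had 5.73, 5.69 and 5.69 in Fyn-null ethanol pools, against 5.82, 5.67 and 6.29 in Fyn-null saline pools, of which the highest is again replicate 4. Its control pools were at 5.81, 6.00 and 6.00 after ethanol, against 5.97, 5.82 and 6.08 after saline. The Pdyn differences were -0.22 in Fyn-null mice (95% interval -0.51 to 0.07) and -0.02 in controls (-0.32 to 0.27), and without the 2 doubted saline pools the value in Fyn-null mice was -0.04.

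The precursors that mark large interneuron classes differed by 0.13 or less between treatments over both genotypes. Sst, the precursor of the inhibitory peptide somatostatin, had 10.45, 10.46 and 10.63 in Fyn-null ethanol pools against 10.44, 10.64 and 10.69 in Fyn-null saline pools, and 10.53, 10.46 and 10.49 in control ethanol pools against 10.48, 10.58 and 10.64 in control saline pools. All groups overlapped, and the difference over both genotypes was -0.08 (95% interval -0.21 to 0.05). Npy, whose product dampens transmitter release, had 10.39, 10.31 and 10.45 in Fyn-null ethanol against 10.35, 10.55 and 10.57 in Fyn-null saline pools, and 10.20, 10.42 and 10.15 in control ethanol against 10.37, 10.46 and 10.38 in control saline pools. Its 2 lowest pools of 12 were both of the control ethanol group, and the difference over both genotypes was -0.13 (95% interval -0.26 to 0.01). Vip, the peptide of interneurons that act on other interneurons, had 10.17, 9.90 and 10.14 in Fyn-null ethanol against 9.96, 9.98 and 9.97 in Fyn-null saline pools, and 9.84, 9.91 and 9.93 in control ethanol against 9.73, 9.92 and 10.04 in control saline pools. It was the only gene of the 10 with a positive difference over both genotypes (0.05, 95% interval -0.09 to 0.19). Cort encodes cortistatin, a relative of somatostatin, and had 6.66, 6.82 and 6.93 in Fyn-null ethanol against 6.73, 6.98 and 6.80 in Fyn-null saline pools, and 6.67, 6.65 and 6.66 in control ethanol against 6.65, 6.85 and 6.49 in control saline pools. Its difference over both genotypes was -0.02 (standard error 0.0721).

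Cck and Tac1 complete the set. Cck, the precursor of cholecystokinin, had 11.27, 11.20 and 11.18 in Fyn-null ethanol against 11.08, 11.12 and 11.29 in Fyn-null saline pools, and 11.15, 11.01 and 11.19 in control ethanol against 11.10, 11.20 and 11.31 in control saline pools. All groups overlapped, and the difference over both genotypes was -0.02 (95% interval -0.15 to 0.12). Tac1 had 9.15, 9.13 and 9.20 in Fyn-null ethanol against 9.27, 9.22 and 9.31 in Fyn-null saline pools, and 9.15, 8.92 and 9.21 in control ethanol against 9.24, 9.35 and 9.12 in control saline pools. The Fyn-null groups of Tac1 did not overlap, at a difference of -0.10 (standard error 0.091, limma adjusted p = 0.724), and the control groups did.

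Within one genotype none of the 10 genes passed the test. In Fyn-null mice 0 of 10 genes passed in limma and 1 had an unadjusted p under 0.05, against 0.4% of all probe sets that passed and 11.7% with an unadjusted p under 0.05. Ethanol pools all lay below saline pools for 2 of the 10 genes (Adcyap1 and Tac1), against 9.81% of all probe sets, the difference was below 0 for 8 of 10, against 52.1%, and the median difference was -0.10, against -0.021 over all genes. In control mice 0 of 10 passed and 3 (Crh, Penk and Adcyap1) had an unadjusted p under 0.05, against 1.43% and 18.9% of all probe sets. Control ethanol pools all lay below control saline pools for 2 of the 10 genes (Crh and Penk), against 16.3% of all probe sets, the difference was below 0 for all 10, against 59.4%, and the median difference was -0.12, against -0.060 over all genes. The difference between the responses passed for 0 of the 10 genes in limma, and none had an unadjusted p under 0.05, against 4.13% of all probe sets.

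The genotypes were then compared within each treatment. These comparisons share pools with the ethanol responses above and are not independent of them. After ethanol, Crh and Penk lay higher and Pdyn lower in every Fyn-null pool than in every control pool, and no gene passed the test. In limma 0 of 10 genes passed and 2 (Crh and Penk) had an unadjusted p under 0.05, against 0% and 13.6% of all probe sets. Fyn-null pools lay wholly above control pools for 2 of the 10 genes, against 13.8% of probe sets, and wholly below for 1, against 6.51%.

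Crh in Fyn-null ethanol pools (7.10 to 7.59) exceeded that in control ethanol pools (6.82 to 7.05) by 0.44, a ratio of 1.36 (standard error 0.150, limma adjusted p = 0.23). The gap between the highest control and the lowest Fyn-null pool was small beside the spread within the Fyn-null group. Penk at 8.00 to 8.27 in Fyn-null ethanol pools, against 7.69 to 7.93 in control ethanol pools, differed by 0.30, a ratio of 1.23 (standard error 0.115, limma adjusted p = 0.279). Pdyn at 5.69 to 5.73 in Fyn-null ethanol pools, against 5.81 to 6.00 in control ethanol pools, differed by -0.23 (standard error 0.135, limma adjusted p = 0.487). The differences of Vip (0.18), Cort (0.14), Npy (0.13), Cck (0.10), Tac1 (0.07), Sst (0.02) and Adcyap1 (0.00) were from groups that overlapped. In a fit that weights arrays by their quality (arrayWeights), Crh (0.52, limma adjusted p = 0.0107), Penk (0.40, limma adjusted p = 0.0146) and Vip (0.23, limma adjusted p = 0.0396) were called higher. That fit called 3975 of all 24770 probe sets, against 0 without weights.

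After saline, no gene passed. In limma 0 of 10 genes passed and 0 had an unadjusted p under 0.05, against 1.89% of all probe sets with an unadjusted p under 0.05. No gene had groups that did not overlap, against 2.94% of probe sets with Fyn-null pools above and 2.22% below. The largest difference was that of Cort (0.17, standard error 0.106, 95% interval -0.06 to 0.40), followed by Penk (0.13) and Adcyap1 (0.10), and Crh stood at 0.05 (95% interval -0.27 to 0.38). Over both treatments 0 of 10 genes passed in limma and 2 (Penk and Cort) had an unadjusted p under 0.05, against 11.1% of all probe sets. Penk was at 0.21 (standard error 0.0815, limma adjusted p = 0.379) and Cort at 0.16 (standard error 0.0721, adjusted p = 0.446). A further fit left out the 2 saline pools whose level of the brighter Fyn probe set went against their labels. Penk was called higher in Fyn-null mice there (0.30, limma adjusted p = 0.0467), among 669 of 24770 probe sets called in all. In that fit Pdyn was at -0.25 (limma adjusted p = 0.0612).

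**Figure D2:**
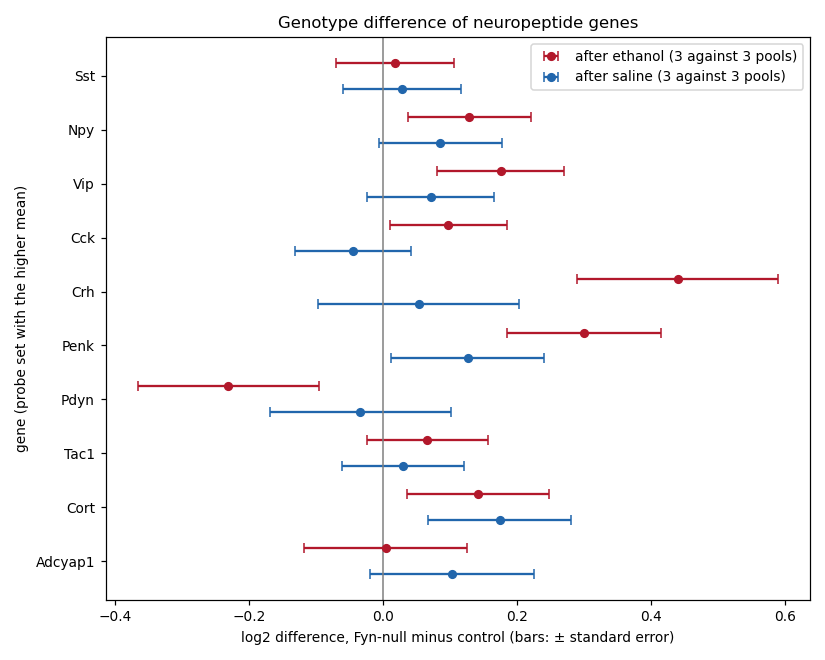
Log2 difference between Fyn-null and control mice (horizontal axis, positive where higher in Fyn-null) of the 10 genes (vertical axis), after ethanol (red) and after saline (blue), with bars for the standard error. The values after ethanol run between -0.23 for Pdyn and 0.44 for Crh, and those after saline between -0.05 for Cck and 0.17 for Cort.

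Receptor genes were examined as a list, which holds the receptors of these peptides and Oprl1, the receptor of the opioid-related peptide nociceptin, whose precursor is not among the 10 genes. Of 21 receptor genes 13 passed the filter, and Sstr1, Sstr5, Npy2r, Vipr2, Cckar, Crhr2, Oprd1 and Tacr1 did not. Over both genotypes 4 of the 13 were called lower after ethanol (Cckbr, Sstr3, Npy1r and Crhr1) and 1 higher (Oprl1), against 4.22% and 2.58% of all probe sets. The median over the 13 was -0.087, against -0.038 over all genes.

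Cckbr, the main cholecystokinin receptor of the forebrain, had 8.86, 8.56 and 8.80 in Fyn-null ethanol pools against 9.23, 9.37 and 9.23 in Fyn-null saline pools, and 8.81, 8.85 and 8.77 in control ethanol pools against 9.25, 9.32 and 9.45 in control saline pools. All 6 ethanol pools lay below all 6 saline pools, and the difference was -0.53 (standard error 0.0625, 0.691 times the saline level, limma adjusted p = 0.000487). It was of like size in Fyn-null mice (-0.54, limma adjusted p = 0.0271) and in controls (-0.53, adjusted p = 0.0205). The dimmer Cckbr probe set was at -0.24 over both genotypes (limma adjusted p = 0.127) and did not pass. The precursor Cck itself was at -0.02. Within a genotype the call for Cckbr was lost without the 2 doubted saline pools (limma adjusted p = 0.0902 in Fyn-null and 0.0579 in control mice). In Fyn-null mice it was also lost without any one of Fyn-null ethanol replicates 2 and 3, Fyn-null saline replicates 2, 3 and 4 and control ethanol replicate 2 (limma adjusted p = 0.0519 to 0.149), and in controls without any one of control ethanol replicates 1 and 2 and control saline replicates 2 and 3 (0.0548 to 0.0768).

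Npy1r, a receptor of neuropeptide Y, had 6.44, 6.05 and 6.18 in Fyn-null ethanol against 6.81, 6.79 and 6.60 in Fyn-null saline pools, and 6.53, 6.36 and 6.57 in control ethanol against 6.88, 6.92 and 6.83 in control saline pools. Again all ethanol pools lay below all saline pools, at -0.45 (standard error 0.0738, limma adjusted p = 0.0042). Npy1r did not pass within Fyn-null mice (-0.51, limma adjusted p = 0.0628) or control mice (-0.39, adjusted p = 0.087). Sstr3, a somatostatin receptor of neuronal cilia, had 5.66, 5.06 and 5.55 in Fyn-null ethanol against 6.11, 5.77 and 5.99 in Fyn-null saline pools, and 5.58, 5.63 and 5.65 in control ethanol against 6.16, 5.84 and 6.11 in control saline pools. The groups did not overlap, and the difference was -0.48 (standard error 0.101, limma adjusted p = 0.0161). Sstr3 did not pass within Fyn-null mice (-0.53, limma adjusted p = 0.179) or control mice (-0.42, adjusted p = 0.158). Over both genotypes Cckbr and Npy1r passed in each alternative fit, as did Sstr3 except that a filter of 60% left it out, and all 3 passed without each single pool.

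Crhr1, the main receptor of corticotropin-releasing hormone in cortex, had 7.88, 7.89 and 7.98 in Fyn-null ethanol against 7.97, 8.21 and 8.20 in Fyn-null saline pools, and 7.90, 7.93 and 7.89 in control ethanol against 8.14, 8.13 and 8.12 in control saline pools. The groups overlapped by the pools at 7.97 and 7.98, and the difference was -0.22 (standard error 0.0535, limma adjusted p = 0.031). This call was lost without any single pool other than Fyn-null ethanol replicate 3 and Fyn-null saline replicate 2, without the 2 doubted saline pools (limma adjusted p = 0.0872), without a filter on dim probe sets (0.0591), with quantile normalization (0.0669) and in the fit that blocks on replicate number (0.0923). Within Fyn-null mice (-0.21, limma adjusted p = 0.311) and control mice (-0.22, adjusted p = 0.167) Crhr1 did not pass. Another Crhr1 probe set was at 0.19 over both genotypes (limma adjusted p = 0.389). Oprl1 had 8.09, 7.72 and 7.82 in Fyn-null ethanol against 7.56, 7.67 and 7.39 in Fyn-null saline pools, and 8.03, 7.91 and 7.90 in control ethanol against 7.56, 7.56 and 7.76 in control saline pools. It was higher after ethanol by 0.33 (standard error 0.0743, limma adjusted p = 0.022), a call lost without control ethanol replicate 1 (limma adjusted p = 0.0509) and without the 2 doubted saline pools (0.0711). By this probe set Oprl1 did not pass within Fyn-null mice (0.34, limma adjusted p = 0.253) or control mice (0.32, adjusted p = 0.153). Its other probe sets were higher by 0.51 and 0.70 (limma adjusted p = 0.00235 and 0.000133), and the probe set at 0.70 also passed in Fyn-null mice (0.71, limma adjusted p = 0.0107) and in control mice (0.70, adjusted p = 0.0111).

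Of the other 8 receptor genes none passed. Oprk1, the dynorphin receptor, was at 0.25 (limma adjusted p = 0.116), Npy5r at -0.20 (0.128), Vipr1 at -0.18 (0.228) and Adcyap1r1, the PACAP receptor, at 0.14 (0.346). Other Adcyap1r1 probe sets were at 0.18 (standard error 0.0857, limma adjusted p = 0.215) and 0.66 (standard error 0.192, limma adjusted p = 0.0575). Between genotypes no receptor gene passed in limma after ethanol or after saline, and the difference after ethanol with the smallest p was that of Sstr4 (0.26, standard error 0.079, adjusted p = 0.199). With arrayWeights, which called 3975 of all 24770 probe sets there, Npy1r was called lower in Fyn-null mice after ethanol (-0.26, limma adjusted p = 0.0365).

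**Figure D3:**
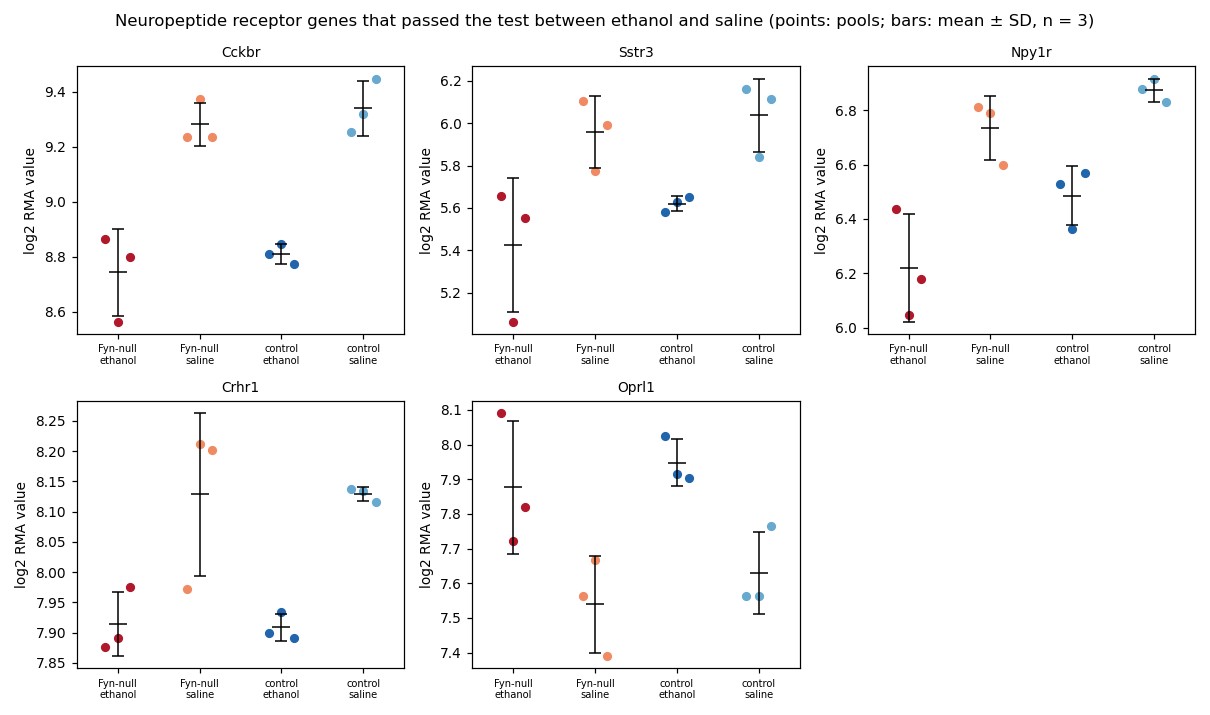
Log2 RMA values (vertical axis, scaled for each panel) of the 5 receptor genes that passed the test between ethanol and saline over both genotypes, in each of 12 pools by group (horizontal axis), with points for pools and bars for the mean ± SD (n = 3 pools). Cckbr, Sstr3 and Npy1r are lower in each ethanol pool than in any saline pool, and Oprl1 is higher in each ethanol group than in its saline group.

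The machinery that makes and stores peptides did not pass any test. Of 16 processing and dense core vesicle genes 0 were called by limma over both genotypes, with a median of -0.038 that equals that of all genes, and the smallest p was that of Ptprn, a membrane protein of dense core vesicles (-0.16, standard error 0.067, limma adjusted p = 0.174). Vgf, itself a peptide precursor in these vesicles, was at -0.19 (limma adjusted p = 0.211). Pam, the enzyme that amidates Npy, Vip and Cck products at their end, had 5.12, 4.86 and 4.99 in Fyn-null ethanol pools, against 6.38, 6.28 and 5.43 in control ethanol pools. These groups did not overlap, at -1.04 (standard error 0.34, limma adjusted p = 0.216), and the saline pools spread as widely, with 5.03, 4.95 and 6.04 in Fyn-null and 5.93, 4.86 and 5.91 in control mice. The outlying saline pools of Pam were the same 2 whose level of the brighter Fyn probe set went against their labels. Of 11 other peptide precursors and binding proteins 0 were called over both genotypes, with a median of -0.070 and the smallest p for Crhbp, the binding protein of corticotropin-releasing hormone (-0.14, standard error 0.0728, limma adjusted p = 0.246).

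Across the 12 pools, all 45 pairs of the 10 genes were correlated. Pearson's r lay between -0.50 and 0.74 with a median of 0.34, and was above 0 for 40 pairs. None passed after adjustment over the 45 pairs, and 5 had an unadjusted permutation p under 0.05. The highest was Npy with Penk (r = 0.74, permutation p = 0.00646, adjusted p = 0.248, and rho = 0.67, permutation p = 0.0207, adjusted p = 0.273). Its r was 0.38 without the 2 pools farthest from the median of Npy, 0.32 within Fyn-null and 0.86 within control pools, and 0.39 with group means removed. Leaving out the pools most extreme in a gene narrows its range, so this cannot show that r rested on them. Crh with Penk gave r = 0.70 (permutation p = 0.0122, adjusted p = 0.248), which was 0.13 with group means removed, and Crh with Adcyap1 gave r = 0.68 (permutation p = 0.0165, adjusted p = 0.248), which was 0.59 with group means removed. Without the 2 pools farthest from the median of Crh, r was 0.58 with Penk and 0.49 with Adcyap1. With group means removed, r was highest for Vip with Adcyap1 (0.85, against 0.27 over all pools), followed by Vip with Crh (0.83, against 0.57). These pairs were picked as the highest of 45, and r with group means removed was not tested.

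As a description, the 3 genes of 12323 whose values followed a gene most closely over the 12 pools were found by Pearson's r. For Adcyap1 they were Akap17b (0.96), Nfil3 (0.95) and Ubr4 (0.94). For Crh they were Fam189a1 (0.97), Polr3b (0.95) and Ccpg1 (0.95), and for Penk they were Mcam (0.93), Pde8b (0.92) and Dlc1 (0.92). The best match of each other gene was 0.93 for Pdyn with Zfp94, 0.92 for Npy with Apex2, Sst with Cenpt and Cck with Itm2c, 0.91 for Vip with Emc8, 0.89 for Cort with Zfp536 and 0.88 for Tac1 with Lap3. These arrays share treatment groups, and the highest of 12323 values is selected.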

How the data were processed

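RNA from 12 pools of medial PFC was hybridised to Affymetrix whole-genome mouse arrays. The deposited values are log2 RMA values that the authors made in affy, as the processing notes of the submitters name it. The versions of both are not given in the sources at hand. The study's methods describe a step against hybridization batch effects, and whether it reached the deposited values is not stated there. The study's S-scores could not be derived, since they start from probe-level signals. Of 45037 probe sets (64 control probe sets left out), 34945 have 1 gene symbol in the platform annotation, 932 several and 9160 none. The 24770 probe sets past the filter went into moderated linear models (lmFit and eBayes of limma 3.58.1, under R 4.3.3). Means of the 4 groups gave the comparisons within a treatment or genotype and the difference of responses, and additive terms gave those over both. Tests were two-sided, with Benjamini-Hochberg adjustment over all 24770 probe sets and a threshold of 0.05. The fits were tested on simulated data. The brightest probe set past the filter stood for its gene. The median standard error was 0.108 for 3 against 3 pools and 0.0764 for 6 against 6, and the number of arrays limits the precision. Permutation tests of correlations drew 100000 resamples.

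The 10 genes and all lists were chosen with earlier results of these data known. All 10 genes are named. Of each list, genes called (at most 6) and up to 4 others with the smallest p could be named, besides the 3 genes most like each of the 10. Adcyap1r1 and the genes of a list that are named only as past or not past the filter were added for their role, with their values known. Replicate numbers were not treated as pairs: after removal of group means, 3 of the 13 same-numbered array pairs correlated above 0.1 (lowest -0.43, highest 0.32). Alternatives were other filters (none, 60%), quantile normalization, a replicate block, trend and robust settings of eBayes, arrayWeights, only the groups compared, leaving out each pool and leaving out both doubted saline pools.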

Additional observations from a re-analysis of the deposited data

How the results depend on the processing

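Over the 10 precursor genes and the 5 called receptor genes, 803 of 827 values from alternatives other than leaving out 1 pool stayed on the same side of the threshold, 13 lost and 11 gained a call, and of 1344 values from leaving out 1 pool 1311 stayed, 29 lost and 4 gained one. No called value changed sign, whereas 40 and 78 values that had not passed did. Among the 11 precursor probe sets, arrayWeights called 3 between genotypes after ethanol and 1 in the ethanol response of Fyn-null mice (Adcyap1, -0.34, limma adjusted p = 0.0271). Of all 24770 probe sets it called 3975 and 2781 in these comparisons. Without the 2 doubted saline pools 1 was called between genotypes over both treatments (Penk) and 0 between treatments over both genotypes. With the replicate number as a block 0 were called between treatments (Adcyap1 -0.30, limma adjusted p = 0.0584), and the calls of Cckbr within each genotype (0.121 in Fyn-null and 0.113 in control mice) and of Crhr1 over both (0.0923) were lost. Leaving out 1 pool gave 0 to 2 called between treatments, and without control ethanol replicate 4 the dimmer Adcyap1 probe set passed (-0.35, limma adjusted p = 0.0301). The ethanol response of Npy1r passed in Fyn-null mice with the filter of 60%, quantile normalization, arrayWeights or without Fyn-null ethanol replicate 1 (limma adjusted p = 0.00131 to 0.0492). With arrayWeights it also passed in control mice (limma adjusted p = 0.0465), as did that of Sstr3 in Fyn-null mice (0.0356). Fits of only the groups compared, which hold fewer arrays, did not call Cckbr (limma adjusted p = 0.0898 in Fyn-null and 0.0723 in control mice). The cause of these changes was not tested. Pdyn and Sstr3 did not pass the filter of 60%.

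Counts over all probe sets moved further. Between treatments over both genotypes, 1686 were called, against 710 with the block, 1963 with quantile normalization, 2098 with arrayWeights and 770 to 1625 without 1 pool. In Fyn-null mice 99 were called, against 155 with quantile normalization, 26 with the block, 2781 with arrayWeights, 54 without the doubted pools and 33 to 145 without 1 pool. In control mice 355 were called, against 36 with the block, 18 in the fit of only the groups compared and 147 without the doubted pools. The count in control mice was 412 with quantile normalization, 506 with arrayWeights and 76 to 410 without 1 pool. Between genotypes 0 were called after ethanol, against 3975 with arrayWeights, 193 in the fit of only the groups compared, 260 without the doubted pools and up to 35 without 1 pool. After saline 44 were called without the doubted pools, and over both treatments 669 without them and up to 129 without 1 pool, against 0 for each. At a standard error of 0.108, differences of the size seen for most of the 10 genes could not be told apart from the spread between pools.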
